A study of Mus musculus with 18 samples.

Results

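The genes described here were 9 factors that lie at the output of the circadian clock or beside its central loop: *Dbp*, *Tef*, *Hlf*, *Nfil3*, *Bhlhe40*, *Bhlhe41*, *Rora*, *Rorb* and *Fbxl21*. They were chosen by name, as the probesets whose platform annotation carried one of these symbols, a rule that uses no measured value. Each gene had 1 probeset with its symbol, so 9 of the 34760 probesets on the array, or 9 of the 19937 genes with a probeset of 1 symbol, were followed. All 9 of 9 lay above the 40th percentile of mean signal.

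In mammals the clock is a transcription loop in which CLOCK and ARNTL switch on genes with an E-box, among them the period and cryptochrome genes, whose proteins then block CLOCK and ARNTL. *Dbp*, *Tef* and *Hlf* encode the PAR-bZIP activators, which carry the rhythm to other genes through D-box sequences, and NFIL3 represses from the same sequences. BHLHE40 and BHLHE41 are repressors that bind E-boxes, RORA and RORB are nuclear receptors that activate *Arntl* through ROR elements, and FBXL21 is the F-box subunit of a ubiquitin ligase that acts on cryptochromes. In the hypothalamus this loop is best known from the suprachiasmatic nucleus, the pacemaker that is set by light.

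RNA from the hypothalamus of 18 male mice had been hybridised, each to its own Affymetrix Mouse Gene 1.0 ST array. At ‘peak’ BP, in the active period, there were 6 mice of BPH/2J and 6 of BPN/3J, labelled as 26 weeks old. At ‘trough’ BP, in the inactive period, there were 3 of each strain, labelled as 18 weeks old but given as 19 weeks in the description of the series. BPH/2J is the inbred Schlager hypertensive strain and BPN/3J its normotensive counterpart. The labels name no transgene and no treatment, and all 18 mice were killed by an overdose of pentobarbitone. Time of day and age changed together and cannot be told apart. The labels name the whole hypothalamus, whereas the methods of the study describe dissection of the paraventricular and dorsomedial nuclei. For the BPN/3J ‘trough’ mice the strain label reads BPH/2J while title, description and blood pressure label give the normotensive strain, and the title was followed. The labels do not say whether mice shared a litter or an array run, and p-values measure the spread between these mice only.

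Values are log2 signals normalized by RMA, so a difference of 1 is a doubling, and signals of different genes cannot be set against each other. The array medians ran between 6.17 and 6.42. Of the 15 hypothalamic markers 14 were measured, and all 14 lay above the 40th percentile of signal. So did 6 of 6 measured markers of the thalamus, 5 of 6 of the cortex and hippocampus and 4 of 5 of the choroid plexus. The count therefore does not show a dissection free of neighbouring tissue. BPN/3J ‘trough’ mouse 1 had the highest array median, and it was the lowest of its group for all 9 genes and the lowest of all 18 mice for 5 of them. Markers of the pituitary stood higher in the BPN/3J ‘trough’ group, with a mean deviation from the average of all mice between -0.40 and 0.46 in the BPN/3J ‘peak’ mice and between 0.23 and 2.32 in the BPN/3J ‘trough’ mice, the highest in mouse 3. Of these 6 markers 4 were lower at ‘peak’ than at ‘trough’ BP in BPN/3J by the test below, 3 lay under the 40th percentile of signal, and their part in the results was not tested. The tissue was measured in bulk, so fewer cells of a type and less RNA per cell cannot be told apart.

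**Figure D1:**
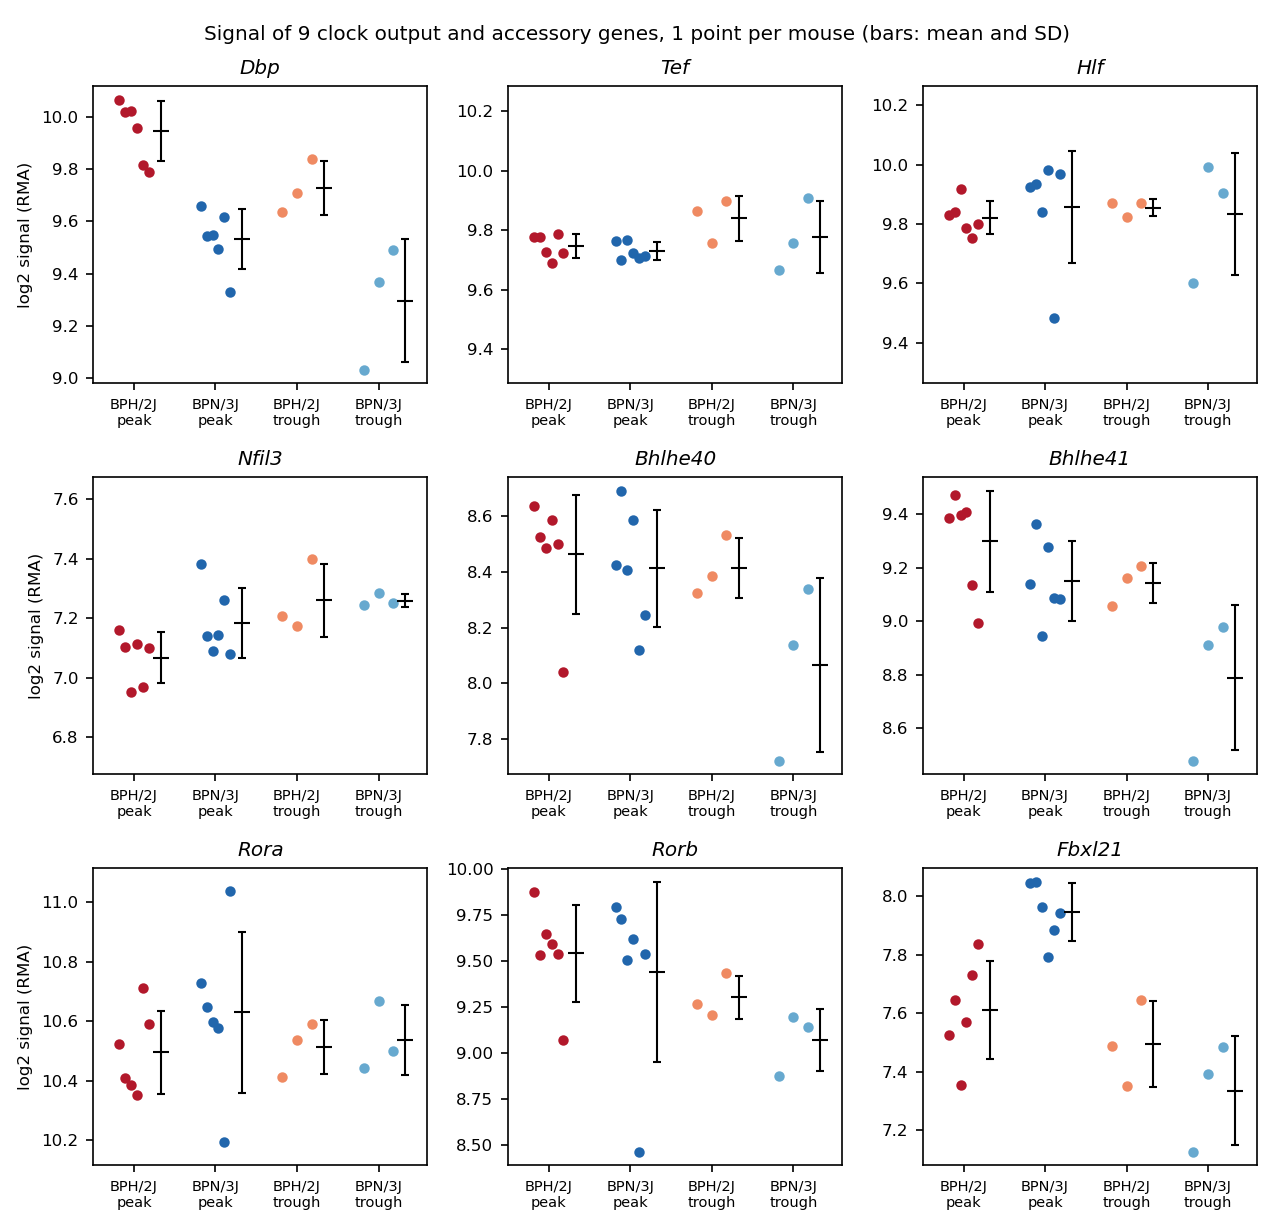
Log2 signal (RMA) of each of the 9 genes in each mouse, with groups along the horizontal axis and the mean and SD of each group as a black bar; every panel spans at least 1 log2 unit, on its own range. The *Dbp* points of BPH/2J lie above those of BPN/3J at both times, and the *Fbxl21* points of BPN/3J at ‘peak’ BP, between 7.79 and 8.05, lie above both ‘trough’ groups.

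The stretch of 250 bases before the start site is shown for *Dbp*, *Bhlhe41* and *Fbxl21*, the genes with a difference that passed the test, since E-boxes and D-boxes near start sites are the sequences through which the loop and the PAR-bZIP factors act. The sequences were taken from RefSeq on GRCm38.p6, read 5′ to 3′ along the gene, and 8 of the 9 genes were matched there. *Bhlhe40* was the gene with no entry. Capitals mark the E-box CACGTG.
Dbp promoter, chr7:45704997-45705246, plus strand: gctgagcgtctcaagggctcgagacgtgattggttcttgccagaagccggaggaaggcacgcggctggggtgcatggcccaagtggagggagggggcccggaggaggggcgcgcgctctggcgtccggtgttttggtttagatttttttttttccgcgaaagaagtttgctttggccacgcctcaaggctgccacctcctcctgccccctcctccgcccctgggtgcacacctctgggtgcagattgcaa
Bhlhe41 promoter, chr6:145865421-145865670, minus strand: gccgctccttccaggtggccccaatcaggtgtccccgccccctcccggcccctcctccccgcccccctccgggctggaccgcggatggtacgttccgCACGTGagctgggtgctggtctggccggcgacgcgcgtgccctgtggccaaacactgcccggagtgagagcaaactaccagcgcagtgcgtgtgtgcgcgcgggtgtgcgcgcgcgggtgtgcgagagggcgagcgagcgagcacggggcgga
Fbxl21 promoter, chr13:56522222-56522471, plus strand: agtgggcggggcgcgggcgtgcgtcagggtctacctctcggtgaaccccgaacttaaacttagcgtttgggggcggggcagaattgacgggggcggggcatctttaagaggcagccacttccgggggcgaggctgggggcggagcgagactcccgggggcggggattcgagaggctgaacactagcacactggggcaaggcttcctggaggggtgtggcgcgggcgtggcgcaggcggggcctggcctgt

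4 motifs were searched on both strands of the 10 windows that the 8 genes gave, *Tef* and *Rorb* having 2 start sites each. The E-box CACGTG was in 6.02% of all 32851 windows of this length, the related CACGTT in 3.85%, the D-box TTANGTAA in 2.06% and the ROR core TAGGTCA in 2.23%, and none of the 4 overlaps another in these windows. The E-box occurred once in the *Bhlhe41* window, 153 bases before the start, and once before each *Tef* start site, at 127 and 138 bases. *Nfil3* held TAGGTCA 12 bases before its start, and the window of 1 *Rorb* start site held CACGTT at 234 and TTANGTAA at 95 bases. The windows of *Dbp*, *Hlf*, *Rora*, *Fbxl21* and the other *Rorb* start site held none of the 4. A match is a description of these letters and not of a bound site.

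Whether BPH/2J and BPN/3J mice differ at each time was asked first. *Dbp*, the PAR-bZIP gene with the strongest rhythm in most mouse tissues, was higher in BPH/2J than in BPN/3J mice at ‘peak’ BP, and it was the single gene of the 9 to pass there. At ‘peak’ BP its signal was 9.79 at the lowest, 9.99 at the median and 10.07 at the highest in BPH/2J mice, against 9.33, 9.55 and 9.66 in BPN/3J mice. Every BPH/2J mouse lay above every BPN/3J mouse. The difference was 0.42 ± 0.08 (SE, n = 6 each), or 1.33-fold, with an interval of 0.24 to 0.59 and an adjusted p of 0.0149 in limma with Benjamini-Hochberg adjustment over all 34760 probesets. At ‘trough’ BP *Dbp* measured 9.64, 9.71 and 9.84 in BPH/2J mice, against 9.03, 9.37 and 9.49 in BPN/3J mice. The groups again did not overlap, the lowest value belonging to BPN/3J mouse 1. The difference of 0.43 ± 0.12 (SE, n = 3 each) had an unadjusted p of 0.00218 and did not pass after adjustment, with an adjusted p of 0.177 in limma.

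The group means of *Dbp* were 9.95 ± 0.12 in BPH/2J at ‘peak’, 9.53 ± 0.12 in BPN/3J at ‘peak’, 9.73 ± 0.10 in BPH/2J at ‘trough’ and 9.30 ± 0.24 in BPN/3J at ‘trough’ BP (SD). From the highest down it ran BPH/2J ‘peak’, BPH/2J ‘trough’, BPN/3J ‘peak’, BPN/3J ‘trough’, and neighbours in that order overlapped. The ‘peak’ minus ‘trough’ differences of 0.22 in BPH/2J (adjusted p = 0.216) and 0.24 in BPN/3J (adjusted p = 0.1) did not pass in limma. Averaged over the strains, a comparison added after the data were seen, the time difference was 0.23 ± 0.07 (SE, adjusted p = 0.0254 in limma), and it no longer passed without BPN/3J ‘trough’ mouse 1 (adjusted p = 0.0934) or without BPH/2J ‘trough’ mouse 1 (0.0754) or 2 (0.0544). Averaged over the times, also added, the strain difference was 0.42 ± 0.07 (SE, adjusted p = 0.00304 in limma), where 1 of the 9 genes was higher against 1% of all probesets.

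At ‘peak’ BP 1 of 9 genes was called higher in BPH/2J against 0.616% of all probesets, and 1 of 9 had BPH/2J mice all above BPN/3J mice against 0.745%. The *Dbp* call held without each mouse in turn, at differences of 0.37 to 0.45 and adjusted p-values up to 0.0465. The mean of a list of genes that glucocorticoids induce, *Per1* of the central loop among them, was also higher in BPH/2J at ‘peak’ BP. Their mean deviation over 8 of 8 genes ran between 0.09 and 0.31 in BPH/2J mice and between -0.18 and -0.03 in BPN/3J mice. There 8 of 8 had a difference above 0, at a median of 0.255 against -0.0057 over all probesets. Of the 8 genes 1 passed as higher, against 0.616% of all probesets. At ‘trough’ BP their deviations overlapped. They ran between -0.20 and 0.06 in BPH/2J mice and between -0.47 and -0.0069 in BPN/3J mice. Of the 8 genes 7 had a difference above 0 there, at a median of 0.144 against 0.0022 over all probesets, and 0 passed, against 0.529%. Their part in the *Dbp* difference was not tested.

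On chromosome 7, *Dbp* lies between *Car11*, a carbonic anhydrase-related gene, and *Sphk2*, a sphingosine kinase gene that overlaps it. The 5 measured genes on either side were compared after the data were seen, to show whether the strain difference was shared along the chromosome. *Car11* was higher in BPH/2J mice at ‘peak’ BP by 0.32 ± 0.07 (SE, adjusted p = 0.0338 in limma) and differed by 0.19 at ‘trough’ BP (adjusted p = 0.538). *Sphk2* differed by -0.04 at ‘peak’ (adjusted p = 0.942) and -0.02 at ‘trough’ BP (adjusted p = 0.96), and of the 10 neighbours *Car11* was the one that passed at either time. *Fut2*, a fucosyltransferase gene on the *Car11* side, differed by 0.40 ± 0.11 at ‘peak’ BP (SE, adjusted p = 0.128) and by 0.18 at ‘trough’ BP, and *Sult2b1*, a sulfotransferase gene on the *Sphk2* side, by 0.24 (adjusted p = 0.389) and -0.09. Around *Fbxl21*, the overlapping *Lect2* differed by 0.07 at ‘peak’ and -0.04 at ‘trough’ BP, and 0 of its 10 neighbours passed between the strains in limma at either time.

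**Figure D2:**
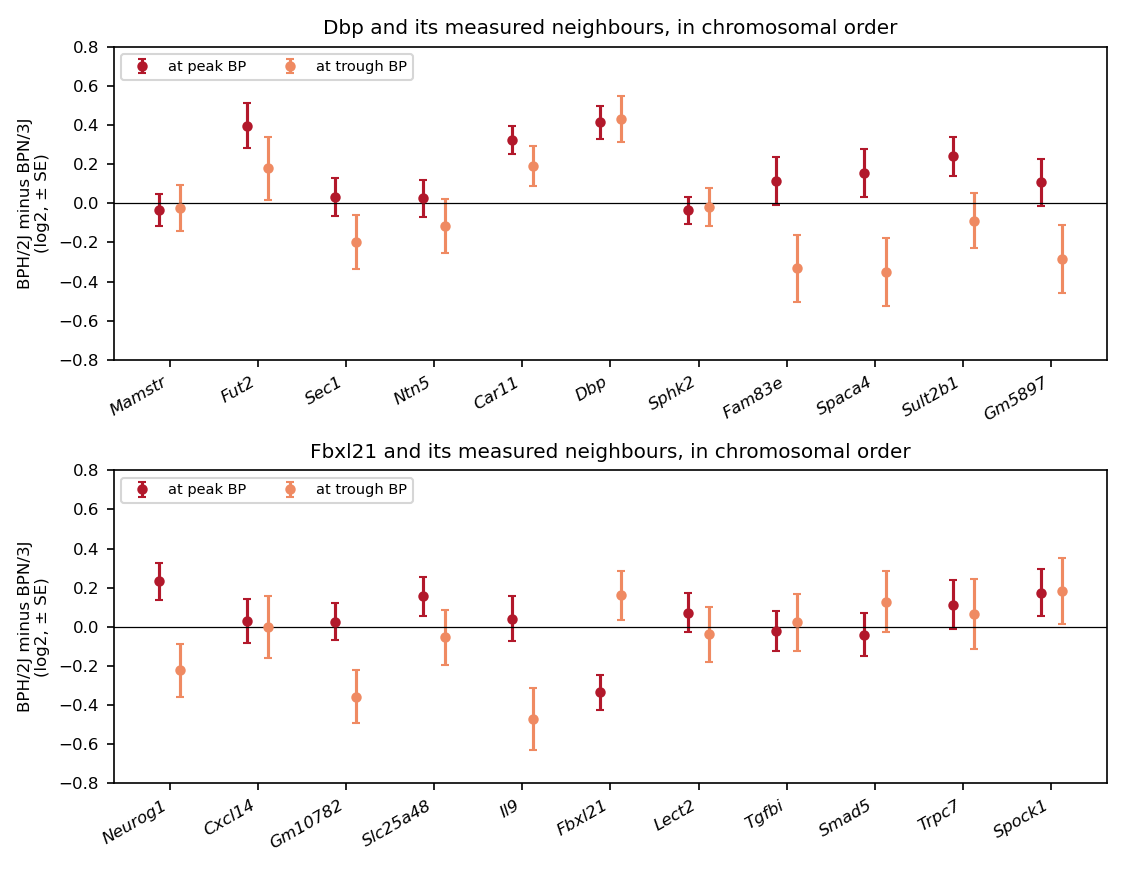
BPH/2J minus BPN/3J difference in log2 signal, with its SE, at ‘peak’ BP (dark red) and ‘trough’ BP (orange) for *Dbp* (top) and *Fbxl21* (bottom) and the 5 measured genes on either side, in chromosomal order. *Dbp* differs by 0.42 and 0.43 and *Car11* beside it by 0.32 and 0.19, while *Sphk2* on the other side lies at -0.04 and -0.02.

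The other PAR-bZIP activators, *Tef* and *Hlf*, did not pass in any comparison. *Tef* ran between 9.69 and 9.79 in BPH/2J and between 9.70 and 9.77 in BPN/3J mice at ‘peak’ BP, and measured 9.87, 9.76 and 9.90 in BPH/2J and 9.67, 9.76 and 9.91 in BPN/3J mice at ‘trough’ BP. The strain groups overlapped at both times. The interval of the strain difference was -0.10 to 0.13 at ‘peak’ and -0.10 to 0.23 at ‘trough’ BP. It lay below the *Dbp* estimate at both times, but at ‘trough’ BP it overlapped the *Dbp* interval of 0.18 to 0.68. *Hlf* ran between 9.75 and 9.92 in BPH/2J and between 9.48 and 9.98 in BPN/3J mice at ‘peak’ BP, and measured 9.87, 9.82 and 9.87 in BPH/2J and 9.60, 9.99 and 9.90 in BPN/3J mice at ‘trough’ BP. BPN/3J ‘peak’ mouse 10 was the lowest of all 18 for *Hlf*, and the next was BPN/3J ‘trough’ mouse 1. The strain differences of *Hlf* were -0.03 at ‘peak’ (interval -0.22 to 0.15) and 0.02 at ‘trough’ BP (-0.23 to 0.28). The 4 group means lay between 9.73 and 9.84 for *Tef* and between 9.82 and 9.86 for *Hlf*. The differences between *Dbp* and either gene were not themselves tested.

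*Nfil3*, the repressor that acts on the same D-boxes, was the member with its BPH/2J ‘peak’ mice all below the ‘trough’ mice. In BPH/2J it was 6.95 at the lowest, 7.10 at the median and 7.16 at the highest at ‘peak’ BP, against 7.21, 7.17 and 7.40 at ‘trough’ BP. The difference was -0.19 ± 0.08 (SE, n = 6 and 3), with an unadjusted p of 0.0313 and an adjusted p of 0.164 in limma. Of the 9 genes 1 did not overlap and was lower in this comparison, against 9.55% of all probesets. In BPN/3J it ran between 7.08 and 7.38 at ‘peak’ BP, against 7.24, 7.28 and 7.25 at ‘trough’ BP. These groups overlapped, at a difference of -0.08 (adjusted p = 0.513 in limma). Between the strains *Nfil3* differed by -0.12 at ‘peak’ (interval -0.26 to 0.03) and 0.0012 at ‘trough’ BP (-0.20 to 0.20).

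Whether the genes change between ‘peak’ and ‘trough’ BP was asked within each strain. In BPN/3J *Fbxl21* and *Bhlhe41* were higher at ‘peak’ BP, so 2 of 9 were called higher, against 12.9% of all probesets, and 0 of 9 lower. With 25.3% of all probesets called in either direction there, the count of members was not above the share over the array. In BPH/2J 0 of 9 passed, against 8.64% of all probesets, and the *Dbp* and *Nfil3* differences were the 2 of 9 with an unadjusted p under 0.05, against 23.1% of all probesets. Averaged over the strains, 3 of 9 (*Dbp*, *Bhlhe41* and *Fbxl21*) were higher at ‘peak’ BP against 16.1%, and 0 of 9 lower against 16.9%. With 33% of all probesets called in either direction there, the count of members was near the share over the array.

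*Fbxl21* in BPN/3J mice was 7.79 at the lowest, 7.95 at the median and 8.05 at the highest at ‘peak’ BP, against 7.13, 7.39 and 7.49 at ‘trough’ BP. All 6 ‘peak’ mice lay above all 3 ‘trough’ mice, which 1 of 9 genes did in this comparison against 11.6% of all probesets. The difference was 0.61 ± 0.11 (SE, n = 6 and 3), or 1.53-fold, with an interval of 0.38 to 0.84 and an adjusted p of 0.00149 in limma. It passed under every alternative that gave a test, at differences of 0.51 to 0.71 and adjusted p-values between 1.95e-05 and 0.016, the lowest difference being without BPN/3J ‘trough’ mouse 1. Without BPN/3J ‘trough’ mouse 3, the one with the highest pituitary markers, it was 0.64 (adjusted p = 0.00833 in limma). The lowest pituitary deviation of that group, 0.23 in mouse 1, was still above the BPN/3J ‘peak’ median of -0.32. Leaving out mouse 3 therefore cannot decide the part of pituitary tissue, which was not tested.

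In BPH/2J mice *Fbxl21* was 7.36 at the lowest, 7.61 at the median and 7.84 at the highest at ‘peak’ BP, against 7.49, 7.35 and 7.64 at ‘trough’ BP. These groups overlapped, and the difference of 0.12 had an interval of -0.11 to 0.34 (adjusted p = 0.575 in limma). Its group means were 7.61 ± 0.17 in BPH/2J and 7.95 ± 0.10 in BPN/3J at ‘peak’ BP, and 7.49 ± 0.15 in BPH/2J and 7.33 ± 0.19 in BPN/3J at ‘trough’ BP (SD). From the highest down the order was BPN/3J ‘peak’, BPH/2J ‘peak’, BPH/2J ‘trough’, BPN/3J ‘trough’, with the strains changing places between the times and neighbours overlapping. BPH/2J minus BPN/3J was -0.34 ± 0.09 at ‘peak’ (SE, unadjusted p = 0.00143, adjusted p = 0.0816 in limma) and 0.16 ± 0.13 at ‘trough’ BP (adjusted p = 0.663). At ‘peak’ BP 1 BPH/2J mouse, number 9 at 7.84, lay above the lowest BPN/3J mouse, and without it the difference of -0.38 passed (adjusted p = 0.0425, where the alternatives ran from 0.0232 to 0.409).

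The 2 repressors that bind E-boxes both had their highest mean in BPH/2J at ‘peak’ BP (8.46 for *Bhlhe40*, 9.30 for *Bhlhe41*) and their lowest in BPN/3J at ‘trough’ BP (8.07 and 8.79). *Bhlhe41* in BPN/3J mice was 8.95 at the lowest, 9.11 at the median and 9.36 at the highest at ‘peak’ BP, against 8.48, 8.91 and 8.98 at ‘trough’ BP. A single ‘peak’ mouse, number 7, lay below the highest ‘trough’ mouse. The difference was 0.36 ± 0.13 (SE, n = 6 and 3), or 1.28-fold, with an interval of 0.09 to 0.63 and an adjusted p of 0.0466 in limma. It did not pass without BPN/3J ‘trough’ mouse 1 (0.21, adjusted p = 0.309, the largest over its alternatives, whose smallest was 0.00557), after quantile normalization (0.25, 0.0909) or with the 2 groups fitted alone (0.0982). Nor did it pass without BPN/3J ‘trough’ mouse 3 (0.0698), any BPH/2J ‘trough’ mouse, numbers 4, 6 or 7 of BPH/2J and 5, 6 or 8 of BPN/3J at ‘peak’ BP, at adjusted p-values between 0.0529 and 0.091. In BPN/3J ‘trough’ mouse 1, 8 of 8 glucocorticoid-induced genes were also the lowest of the group of 3. So were 5 of 5 markers of the choroid plexus, 6 of 7 of astrocytes, 5 of 6 of the cortex and hippocampus and 5 of 6 of the thalamus. Other lists were less one-sided, with 4 of 14 of the hypothalamus, 2 of 9 of the suprachiasmatic nucleus and 1 of 5 of oligodendrocytes lowest. For endothelium it was 2 of 5, for microglia 4 of 6, for pituitary 3 of 6 and for immediate early genes 6 of 10. The part of any list in the difference was not tested.

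*Bhlhe41* in BPH/2J mice was 8.99 at the lowest, 9.39 at the median and 9.47 at the highest at ‘peak’ BP, against 9.06, 9.16 and 9.20 at ‘trough’ BP. Mice 8 and 9 were the 2 ‘peak’ mice within or below the ‘trough’ range. The difference of 0.16 had an interval of -0.11 to 0.42 (adjusted p = 0.506 in limma). At ‘trough’ BP the BPH/2J values all lay above the BPN/3J values, by 0.35 ± 0.15 (SE, unadjusted p = 0.0278, adjusted p = 0.43 in limma). At ‘peak’ BP the strains overlapped at a difference of 0.15 (adjusted p = 0.719).

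*Bhlhe40* in BPN/3J mice was 8.12 at the lowest, 8.42 at the median and 8.69 at the highest at ‘peak’ BP, against 7.72, 8.14 and 8.34 at ‘trough’ BP. The groups overlapped in *Bhlhe40*, and the difference of 0.35 ± 0.15 (SE) had an adjusted p of 0.0955 in limma. It fell to 0.18 (adjusted p = 0.483) without BPN/3J ‘trough’ mouse 1. In BPH/2J *Bhlhe40* ran between 8.04 and 8.64 at ‘peak’ BP, against 8.32, 8.39 and 8.53 at ‘trough’ BP, at a difference of 0.05 (interval -0.27 to 0.37). The lowest of these was ‘peak’ mouse 9, and without it the difference was 0.13.

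Of the ROR genes, *Rorb* had 1 mouse apart from its group. *Rorb*, which is best known from retina, thalamus and sensory cortex and is also expressed in the suprachiasmatic nucleus, was 8.46 at the lowest, 9.57 at the median and 9.79 at the highest in BPN/3J mice at ‘peak’ BP, against 8.87, 9.19 and 9.14 at ‘trough’ BP. The value of 8.46 was that of mouse 10, and the other 5 ‘peak’ mice lay above all 3 ‘trough’ mice. With all mice the difference was 0.37 ± 0.23 (SE, adjusted p = 0.231 in limma), and without mouse 10 it was 0.57 (adjusted p = 0.01, where the alternatives ran from 0.00174 to 0.563). The same mouse was the lowest of all 18 for *Rora* (10.20) and for *Hlf* (9.48). Of 6 thalamic markers, counted without *Rora* and *Rorb*, all 6 were at their lowest of the group in mouse 10, with a mean deviation of -0.63 against a group median of 0.10, and their part in these values was not tested.

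In BPH/2J mice *Rorb* was 9.07 at the lowest, 9.56 at the median and 9.87 at the highest at ‘peak’ BP, against 9.26, 9.21 and 9.43 at ‘trough’ BP. Mouse 9 was the one ‘peak’ mouse below the ‘trough’ values, and the difference was 0.24 ± 0.23 (SE, adjusted p = 0.579 in limma). At ‘trough’ BP the BPH/2J values of *Rorb* all lay above those of BPN/3J, at a difference of 0.23 (interval -0.32 to 0.78, adjusted p = 0.771). Group means of *Rorb* were 9.54 ± 0.26 in BPH/2J and 9.44 ± 0.49 in BPN/3J at ‘peak’ BP, and 9.30 ± 0.12 in BPH/2J and 9.07 ± 0.17 in BPN/3J at ‘trough’ BP (SD). With *Dbp* and *Bhlhe41*, 3 of 9 genes had BPH/2J mice all above BPN/3J mice at ‘trough’ BP, against 11.1% of all probesets. None of the 9 passed there in limma, against 0.529% of all probesets, and 2 of 9 (*Dbp* and *Bhlhe41*) had an unadjusted p under 0.05, against 10.4%.

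*Rora* ran between 10.35 and 10.71 in BPH/2J and between 10.20 and 11.04 in BPN/3J mice at ‘peak’ BP, and measured 10.41, 10.54 and 10.59 in BPH/2J and 10.44, 10.67 and 10.50 in BPN/3J mice at ‘trough’ BP. Both the highest and the lowest of the 18 values were BPN/3J ‘peak’ mice, and all groups overlapped. Its differences were -0.02 between the times in BPH/2J, 0.09 in BPN/3J, -0.14 between the strains at ‘peak’ and -0.02 at ‘trough’ BP, and the smallest unadjusted p of the 4 was 0.233.

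**Figure D3:**
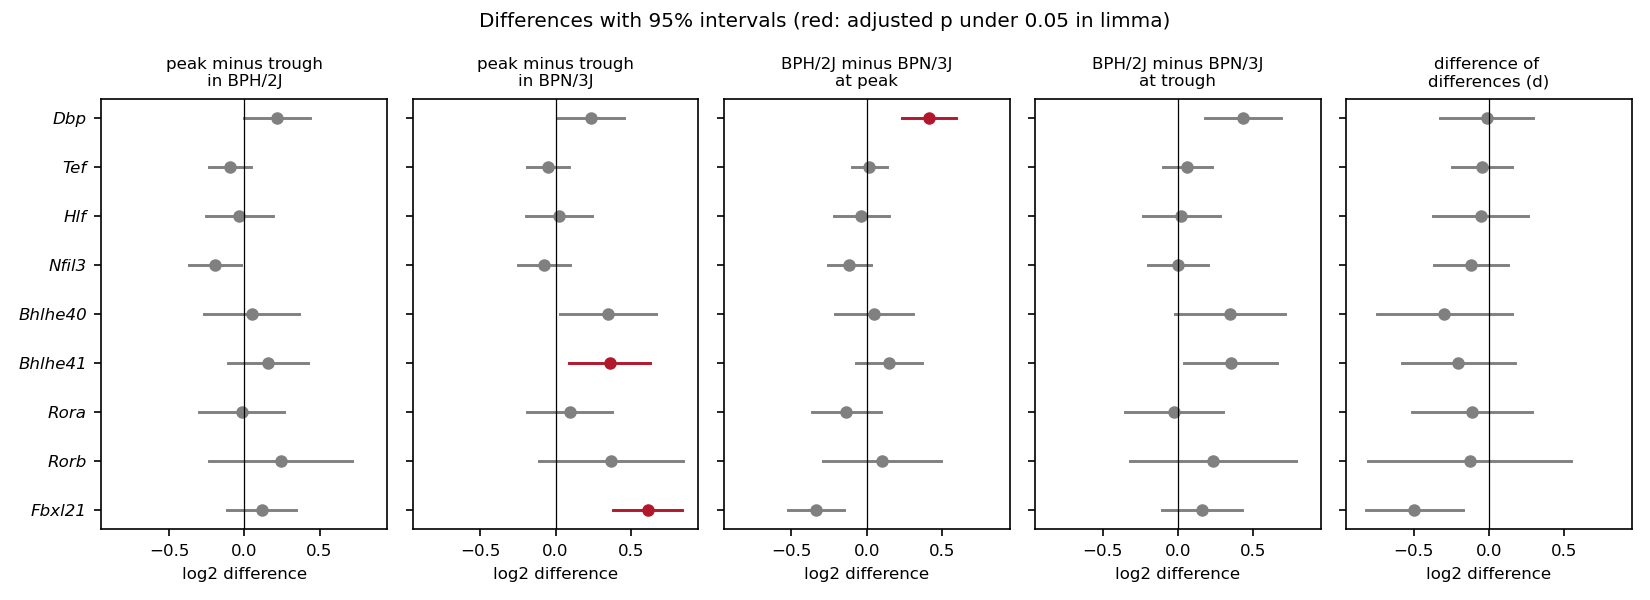
Log2 differences with 95% intervals for the 9 genes (rows) in the 5 comparisons (panels), with red for an adjusted p under 0.05 in limma. *Dbp* at ‘peak’ BP (0.42) and *Bhlhe41* (0.36) and *Fbxl21* (0.61) between the times in BPN/3J are the red points, and in the right panel all 9 points lie at or below 0, the lowest being *Fbxl21* at -0.50.

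Whether the strain difference itself changed between the times was measured by *d*, the BPH/2J minus BPN/3J difference at ‘peak’ less that at ‘trough’ BP. Written as a signed fold it is the adjusted fold difference, *aFD*. *Fbxl21* had the largest *d* of the 9, at -0.50 ± 0.15 (SE), with an interval of -0.82 to -0.17 and an *aFD* of -1.41. Its unadjusted p was 0.00483 and its adjusted p 0.589 in limma. It was the 1 gene of 9 with an unadjusted p under 0.05, against 8.31% of all probesets, and 0 of 9 passed after adjustment, against 0% (0 of 34760).

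For *Dbp* *d* was -0.02 (interval -0.33 to 0.29). The others were -0.05 for *Tef*, -0.06 for *Hlf*, -0.12 for *Nfil3*, -0.30 for *Bhlhe40*, -0.20 for *Bhlhe41*, -0.11 for *Rora* and -0.13 for *Rorb*. All 9 were below 0 at a median of -0.12, against a median of -0.01 over all probesets, and all 9 rest on the same 3 BPN/3J ‘trough’ mice, of which mouse 1 was the lowest for each gene. Without that mouse *d* was above 0 for *Dbp* (0.12), *Tef* (0.0092) and *Hlf* (0.059). None reached an *aFD* of 1.5 in size, against 5.93% of all probesets.

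Of 31 other genes 25 were measured. The 31 were 11 genes of the central loop, 10 accessory factors and 10 known targets in other tissues. In BPN/3J 3 of the 25 were higher and 2 lower at ‘peak’ BP in limma, against 12.9% and 12.4% of all probesets. These counts were not above the shares over the array. In each of the other 4 comparisons 0 of 25 passed, at medians between -0.05 and 0.04. Of all probesets 8.64% passed between the times in BPH/2J, and 1.33% and 0.529% between the strains at ‘peak’ and ‘trough’ BP. Of the 10 measured genes of the central loop 8 had a difference above 0 between BPH/2J and BPN/3J at ‘peak’ and 8 at ‘trough’ BP, at medians of 0.15 and 0.13 against -0.0057 and 0.0022 over all probesets, and 0 of 10 passed. Among them *Ciart*, a repressor of CLOCK and ARNTL, differed by 0.55 ± 0.15 at ‘peak’ BP (SE, adjusted p = 0.103). Between the times in BPN/3J *Nr1d2* of the central loop, a nuclear receptor that represses where RORs activate, was higher by 0.26 ± 0.07 (SE, adjusted p = 0.0172). Its relative *Nr1d1* differed by 0.02 there and by -0.35 in BPH/2J (adjusted p = 0.0629), and *Ciart* by 0.29 and, in BPH/2J, 0.51 (adjusted p = 0.0994). Of 8 other accessory genes *Tipin*, whose protein partners TIMELESS, was higher by 1.07 ± 0.21 (SE, adjusted p = 0.00242), and *Csnk1e*, a kinase of the period proteins, differed by -0.14.

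Of 7 measured genes known as targets of these factors or of the clock in other tissues, *Cyp51*, a sterol demethylase, was higher at ‘peak’ BP in BPN/3J by 0.43 ± 0.10 (SE, adjusted p = 0.00583 in limma). *Pdxk*, the pyridoxal kinase that PAR-bZIP factors control in mouse liver and brain, was lower by -0.33 ± 0.08 (adjusted p = 0.0105). *Ces2a*, a carboxylesterase, was lower by -0.66 ± 0.19 (adjusted p = 0.0181), at a mean log2 signal of 3.80, below the 40th percentile of signal. In BPH/2J the differences of these 3 were 0.30, -0.24 and -0.10, and none passed.

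The 9 genes varied together in part. Over 18 mice *Bhlhe40* and *Bhlhe41* had a Pearson correlation of 0.88, and 0.83 after the group means were removed. *Dbp* and *Bhlhe41* had 0.80 (0.70 within groups), *Bhlhe40* and *Rorb* 0.78 (0.73), and *Hlf* and *Rorb* 0.68 (0.79). *Fbxl21* had none above 0.41 with the other 8 over all mice, and within groups its highest was 0.56, with *Tef* (-0.11 over all mice). These points share the normalization and single mice that were low for many genes, BPN/3J ‘trough’ mouse 1 and ‘peak’ mouse 10 among them.

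**Figure D4:**
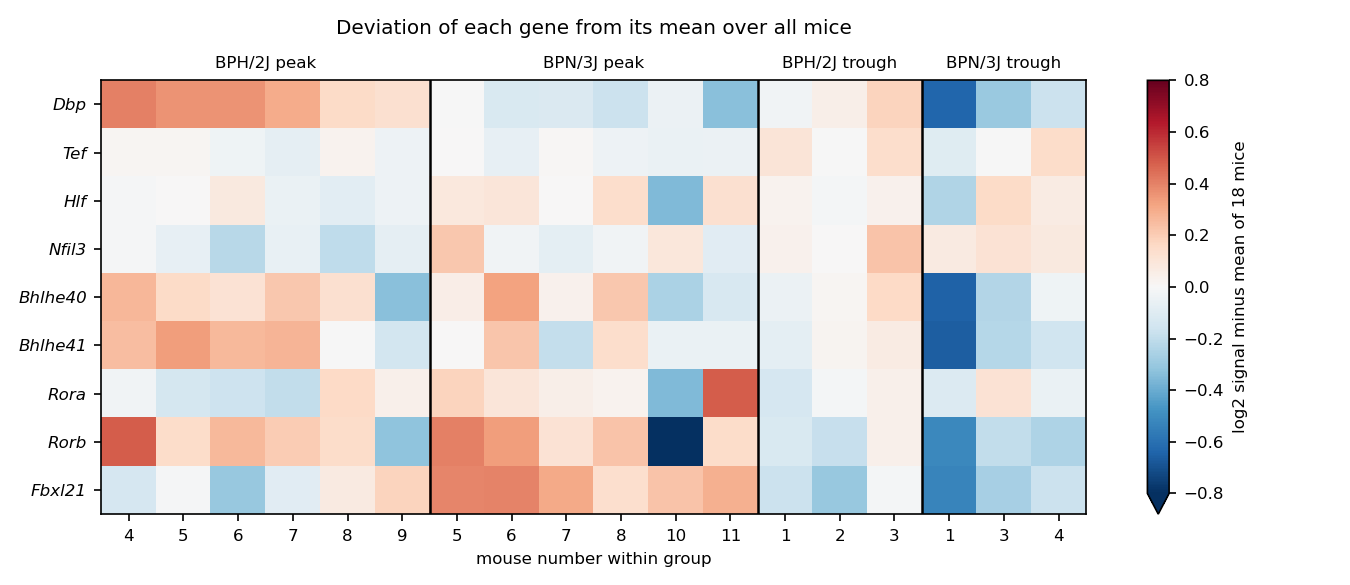
Log2 signal of each gene (rows) in each mouse (columns, by group) minus its mean over all 18 mice, with red above and blue below. BPN/3J ‘trough’ mouse 1 is the lowest of its group in all 9 rows, and BPN/3J ‘peak’ mouse 10 is lowest of all 18 in the *Hlf*, *Rora* and *Rorb* rows.

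The genes with the most similar signal over the 18 mice were listed for the 3 members with the largest mean time difference. For *Fbxl21* they were *Ddx55* at a Pearson correlation of 0.87, *Zfp738* at 0.86, *Tmem135* at 0.85, *Psg16* at 0.85 and *Tomm34* at 0.84. For *Rorb* they were *Gabra4* at 0.94, *Inpp4b* at 0.92, *Zmat4* at 0.91, *Atp13a4* at 0.91 and *Ankrd45* at 0.90. For *Bhlhe41* they were *Gtf3c5*, *Lrrc28*, *Rhbdd1*, *Mre11a* and *Eri2*, at 0.93 to 0.94. Within groups the *Fbxl21* values dropped to between 0.42 and 0.61 and those of the other 2 genes were between 0.88 and 0.94. *Zfp738* lies on chromosome 13 with *Fbxl21*, 92 measured genes away.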

How the data were processed

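The deposited table held log2 signals, which the authors had obtained by RMA per the study's methods. For the software behind it, versions were not given in the sources used here. The table held 34760 probesets and 18 arrays, with 0 missing values, and 0 columns were left unused. Arrays were grouped by title. Of the probesets, 21640 had 1 symbol in the platform annotation, 1321 several and 11799 none, and a gene was named only from the first kind. RMA shares information across arrays and shrinks fold changes, and the number of arrays limits the precision.

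A mean per group was fitted to all 18 arrays with limma 3.58.1 in R 4.3.3 (14 residual and 2.94 prior degrees of freedom), and tests were two-sided. Benjamini-Hochberg adjustment ran over all probesets, within each of the 5 comparisons and within each averaged comparison added later. The limit for an adjusted p to pass was 0.05. The *aFD* was taken from group means without a test. The procedure was tested on simulated data. A difference that did not pass is not thereby shown to be absent. Promoters were searched in Python 3.11.15, and plots made with matplotlib 3.10.9.

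All 9 members were named, with up to 8 of 31 other clock and target genes by the smallest p of the 2 time comparisons, and the 5 most correlated genes of 3 members. Members and lists were chosen with earlier results of these data known. Neighbouring genes, averaged comparisons, the marker ranks of single mice and 3 alternatives were added after the data were seen. Alternatives were quantile normalization, median centring, array weights, leaving out dim probesets, fitting 2 groups alone, the mouse number as a block, a robust prior with a trend, group medians, other choices of probeset and leaving out each mouse.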

Additional observations from a re-analysis of the deposited data

Results flagged for a closer look

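With 6 mice in each ‘peak’ group, 18 sets of values were examined for a mouse far from the others of its group (a gap to its neighbour, as a share of the group's range, beyond Dixon's 95% limit), and 3 were found. Chance gives this in about 1 in 20 groups. The 18 sets come from the same 2 groups of mice and are not independent, so their count cannot be set against that rate. *Hlf* was 9.48 in BPN/3J ‘peak’ mouse 10, with a gap of 0.716 of the range, and *Rorb* was 8.46 in the same mouse, with a gap of 0.782. In that mouse 6 of 6 thalamic markers and 5 of 10 immediate early genes were the lowest of the group, and the part of either in these values was not tested. *Bhlhe40* was 8.04 in BPH/2J ‘peak’ mouse 9, with a gap of 0.749. There 4 of 6 thalamic markers were the lowest of the group and 1 was the highest, and 4 of 8 glucocorticoid-induced genes were the lowest. By the mean deviation over each list, mouse 9 was the lowest of the group for neither. The lowest were mouse 6 for the thalamic markers (-0.10) and mouse 8 for the glucocorticoid-induced genes (0.09). The part of either list in the *Bhlhe40* value was not tested.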

How the results depend on the processing

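The strain call of *Dbp* at ‘peak’ BP held under every alternative that gave a test except the replicate block, and the *Fbxl21* call in BPN/3J under every one, which did not include the block, since mouse numbers lie within a time. Residual correlations of the 6 same-numbered pairs ran between -0.30 and 0.19, which shows no steady pairing. So few pairs cannot settle whether the mouse numbers pair the mice. The block left 12 mice, gave 0 genes between the strains at ‘peak’ BP (*Dbp* 0.39, adjusted p = 0.193) and 0 averaged over the times (0.47, 0.0637), and 1 gene with an *aFD* of 1.5 (*Fbxl21*). In BPN/3J the count of 2 genes between the times became 1 with quantile normalization, with the 2 groups fitted alone and without the 2 least correlated mice (BPN/3J ‘peak’ mouse 11 and ‘trough’ mouse 1), 4 with the lower-numbered ‘peak’ mice, 5 with a term for the higher-numbered ones, and 1 to 4 leaving out each mouse. It was 4 without BPN/3J ‘trough’ mouse 4 (*Dbp*, *Bhlhe40*, *Bhlhe41*, *Fbxl21*). Array weights, which gave 1 BPN/3J ‘trough’ mouse (number 3) a weight of 9.44, moved the counts to 1 in BPH/2J, 5 in BPN/3J, 2 and 3 between the strains at ‘peak’ and ‘trough’ BP, 1 for *d*, and 2 and 6 averaged over times and strains. The lower-numbered ‘peak’ mice gave 1 gene in BPH/2J (*Rorb*), 5 averaged over the strains, as did the term for the others, and 1 with an *aFD* of 1.5. Leaving out each mouse gave 1 to 2 genes between the strains at ‘peak’ BP, 2 without BPH/2J mouse 9, and 1 to 4 averaged over the strains, 1 without BPH/2J ‘trough’ mouse 1 or 2 or BPN/3J ‘trough’ mouse 1. The cause was not tested.

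Over all probesets the counts were 3005 between the times in BPH/2J (1035 to 9257 over the alternatives), 8803 in BPN/3J (3826 to 19431), 462 and 184 between the strains at ‘peak’ and ‘trough’ BP (139 to 739 and 29 to 8091), 0 for *d* (0 to 997), and 597 and 11467 averaged over times and strains (175 to 3784 and 8282 to 19927).

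No difference that passed changed sign. Others did, most of them near 0. With group medians, which give no test, *d* was 0.10 for *Dbp*, 0.0052 for *Nfil3* and 0.028 for *Bhlhe41*, and *Rorb* was -0.014 between the strains at ‘peak’ and *Hlf*, *Nfil3* and *Rora* -0.033, -0.044 and 0.037 at ‘trough’ BP. With quantile normalization, *Hlf* and *Rora* were -0.10 and -0.021 between the times in BPN/3J, *Tef*, *Hlf* and *Nfil3* were -0.0080, -0.0475 and -0.037 between the strains at ‘trough’ BP, and *d* was 0.035, 0.024 and 0.012 for *Dbp*, *Tef* and *Hlf*. With median centring, *Hlf* and *Rora* were 0.026 and 0.042 between the times in BPH/2J, *Tef* and *Nfil3* 0.049 and 0.020 in BPN/3J, *Hlf* 0.0011 between the strains at ‘peak’ and *Rora* 0.049 at ‘trough’ BP. With array weights, *Hlf* and *Rora* were -0.074 and -0.022 between the times in BPN/3J, *Hlf* and *Nfil3* -0.13 and -0.043 between the strains at ‘trough’ BP, and *d* was 0.077 for *Dbp* and 0.058 for *Hlf*. With the replicate block, *Bhlhe40* and *Rorb* were -0.0030 and -0.084 between the strains at ‘peak’ BP. Without the 2 least correlated mice, *Hlf* and *Rora* were -0.11 and -0.035 between the times in BPN/3J, *Hlf* and *Nfil3* -0.093 and -0.0062 between the strains at ‘trough’ BP, and *d* was 0.075, 0.0059, 0.081 and 0.017 for *Dbp*, *Tef*, *Hlf* and *Rora*. With the lower-numbered ‘peak’ mice *d* of *Dbp* was 0.025, and with the term for the others *Hlf* was 0.0098 between the times in BPH/2J. Leaving out each mouse, *Rora* ran from -0.068 to 0.020 between the times in BPH/2J, and *Tef* from -0.10 to 0.017 and *Hlf* from -0.092 to 0.10 in BPN/3J. Between the strains *Bhlhe40* ran from -0.0090 to 0.13 and *Rorb* from -0.094 to 0.20 at ‘peak’ BP, and *Hlf* from -0.093 to 0.10, *Nfil3* from -0.069 to 0.044 and *Rora* from -0.070 to 0.042 at ‘trough’ BP. *d* ran from -0.11 to 0.12 for *Dbp*, -0.11 to 0.0092 for *Tef* and -0.14 to 0.059 for *Hlf*.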

Other observations

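Among all genes of the array, those most like *Dbp* over the 18 mice were *Pgm1* at a Pearson correlation of 0.96, *Mrpl9* at 0.94, *Tmem43* at 0.93, *Nudt19* at 0.92 and *Dhdh* at 0.92, named here after the values were seen. 4 of these 5 were higher in BPH/2J than in BPN/3J mice at ‘peak’ BP in limma, with *Nudt19* at 1.08 (adjusted p = 7.22e-07), *Dhdh* at 0.51 (0.0304), *Pgm1* at 0.48 (0.00283) and *Mrpl9* at 0.46 (0.00203). *Nudt19* and *Dhdh* lie on chromosome 7 with *Dbp*, 148 and 14 measured genes away. At ‘trough’ BP *Nudt19* (1.14, adjusted p = 8.51e-05), *Mrpl9* (0.58, 0.0135) and *Pgm1* (0.57, 0.0303) passed as well. The correlation of each with *Dbp* includes the strain difference that they share, and within groups it was between 0.59 and 0.82.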
